A study of Drosophila melanogaster with 4 samples.

Results

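Intergenic start sites are positions where capped nascent RNA begins in DNA that the gene table of the series assigns to no gene. A called start site belonged to them when the centre of its interval lay on chromosome arm 2L, 2R, 3L or 3R or on chromosome X or 4, outside the span of every gene on both strands, and more than 500 bp from every annotated 5' end. By this rule 1036 of 6782 sites (15.3%, 95% exact Clopper-Pearson interval 14.4 to 16.2%) of 5'GRO-seq replicate 1 were intergenic, and 2025 of 9387 (21.6%, 20.7 to 22.4%) of replicate 2. In both lists, on the same strand and within 5 bp, 241 of them were found. The rule uses position alone, and intervals here and below cover counting error only.

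The study profiled nascent RNA in Drosophila melanogaster S2 cells, a hemocyte-like line from late embryos, in 4 libraries, 2 by GRO-seq and 2 by 5'GRO-seq. In a nuclear run-on, engaged polymerases extend their RNA with a labelled nucleotide; GRO-seq reads all of this RNA, and 5'GRO-seq only fragments that carried a cap. All came from S2 cells with no labelled treatment or genotype contrast, and the labels do not say whether replicates were separate cultures, so differences between lists may be technical. GRO-seq levels are in FPKM, reads per kilobase of gene span scaled to library size, and are given for the libraries in the columns Sample3 and Sample4, which carry no replicate number.

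Capped RNA outside genes is known from several sources. Enhancers are often transcribed from both strands, with start sites back to back, and distal promoters of a gene can lie far upstream of its reference transcript. Unannotated noncoding genes also begin with their own promoters. The files hold positions and no reads, so they do not tell these apart.

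Of the 10 markers of hemocyte-like cells, Hml, a clotting protein of hemocytes, stood at 73.3 FPKM in Sample3 and 63.7 FPKM in Sample4. The collagen genes Cg25C and vkg stood at 276 and 863 FPKM and at 109 and 199 FPKM. The markers srp, ush, LanB1 and crq were at 40.5 FPKM or more in both libraries, whereas Pxn and He stayed between 2.71 and 5.53 FPKM and NimC1, a phagocytosis receptor, had 0.926 and 0.757 FPKM. In bulk RNA, fewer cells of a type and less RNA per cell cannot be told apart. The sites were called from 13979543 reads in replicate 1 and 6710787 in replicate 2, with at least 20 and 14 reads required per site and 4-fold over a GRO-seq control, per the file headers.

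Intergenic sites lay on all 6 chromosomes and arms, and in each list on both strands in similar numbers. They formed between 14.6% (3R) and 16.2% (2L) of the replicate 1 sites of the large arms and X, and between 21.2% (X) and 23.9% (2R) in replicate 2. On the small chromosome 4 they made up 19 of 86 sites (22.1%, 13.9 to 32.3%) and 51 of 178 (28.7%, 22.1 to 35.9%), with intervals that overlap those of the arms. The plus strand held 47.9% (44.8 to 51.0%) of them in replicate 1 and 46.9% (44.7 to 49.1%) in replicate 2. Of the sites found in both lists it held 98 of 241 (40.7%, 34.4 to 47.2%).

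Most intergenic sites were within a few kilobases of a gene, and a minority lay deep between genes. The median distance to the nearest gene span was 1948 bp in replicate 1 (quartiles 770 and 5145 bp) and 2312 bp in replicate 2 (quartiles 691 and 7213 bp). The 241 sites of both lists had a median of 1550 bp (quartiles 778 and 3925 bp). More than 10000 bp from any gene lay 131 sites (12.6%, 10.7 to 14.8%) of replicate 1, 376 sites (18.6%, 16.9 to 20.3%) of replicate 2 and 30 (12.4%, 8.56 to 17.3%) of the sites found in both. The farthest were 74351 bp and 92419 bp from a gene. Near the limit of the rule, the sites just inside it were 501, 502 and 505 bp from an annotated 5' end in replicate 1 and 504, 511 and 513 bp in replicate 2, while the 3 nearest outside it were at 500 bp in each list.

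**Figure D1:**
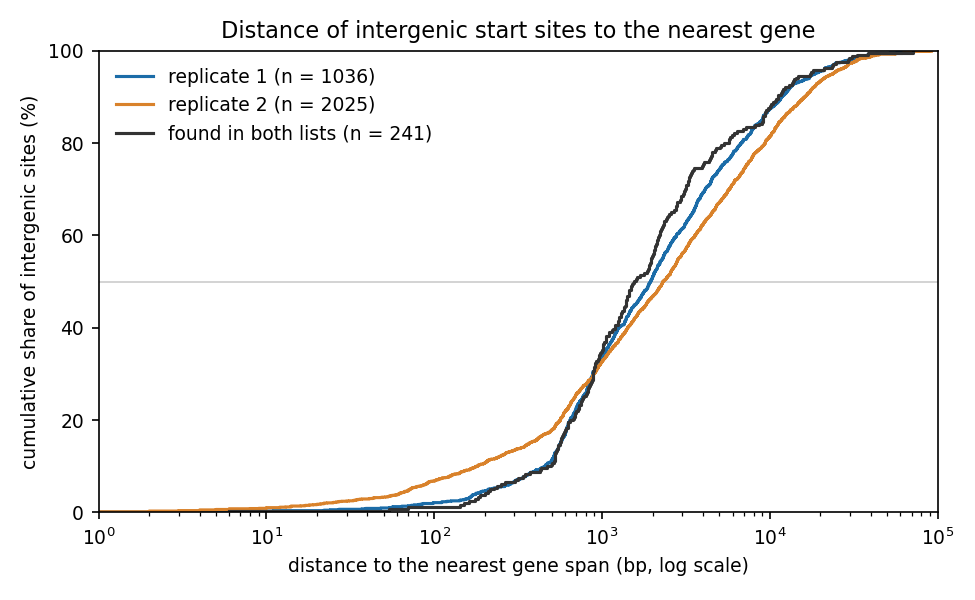
Cumulative share of intergenic sites (y axis, percent) against the distance to the nearest gene span (x axis, bp, log scale) for replicate 1, replicate 2 and the sites found in both lists. The curves cross 50% at 1948, 2312 and 1550 bp, and the replicate 2 curve has the widest quartiles, 691 and 7213 bp.

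Beside short distances, the lists differed in which end of the gene a site lay close to. The rule keeps 5' ends at least 501 bp away but lets a site lie next to a 3' end. Within 500 bp downstream of a 3' end on the same strand lay 74 sites (7.14%, 5.65 to 8.88%) of replicate 1 and 266 (13.1%, 11.7 to 14.7%) of replicate 2. Within 1000 bp of the 5' end of an opposite-strand gene behind them, so that site and gene point apart, lay 125 sites (12.1%, 10.1 to 14.2%) of replicate 1 and 106 (5.23%, 4.31 to 6.30%) of replicate 2. These intervals do not overlap between the lists, but with 1 list per library the difference was not tested across samples.

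For most intergenic sites the next gene ahead was on their own strand, a share that depends in part on how the flanking genes are arranged. The next gene ahead was on the same strand for 671 of 1036 sites (64.8%, 61.8 to 67.7%) in replicate 1, 1199 of 2025 (59.2%, 57.0 to 61.4%) in replicate 2 and 179 of 241 (74.3%, 68.3 to 79.7%) of the sites in both lists. The gene behind was on the same strand for 40.0% (37.0 to 43.0%), 54.5% (52.3 to 56.7%) and 46.1% (39.6 to 52.6%). Replicate 2 thus had many sites downstream of a gene on its strand, and the sites of both lists mostly lay upstream of one. Between genes that point apart, the gene ahead is always on the site's strand. Between genes that point at each other it never is. Such intervals held, in that order, 401 and 144 sites in replicate 1, 630 and 535 in replicate 2, and 100 and 32 shared sites. Between genes on the same strand, 270 sites lay on that strand and 221 opposite in replicate 1, 569 and 291 in replicate 2, and 79 and 30 of the shared sites. A missing gene at a chromosome end counted as opposite. Where the gene ahead was on the same strand, its 5' end was a median of 4851 bp away in replicate 1, 7049 bp in replicate 2 and 4496 bp for sites in both lists.

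The share of intergenic sites found in both lists stood a little below that of all sites in replicate 1 and further below it in replicate 2. The 241 shared sites were 23.3% (20.7 to 26.0%) of the intergenic sites of replicate 1, against 26.5% of all its sites on the arms. They were 11.9% (10.5 to 13.4%) of those of replicate 2, against 19.9% of all its sites. Sites at annotated 5' ends, meaning at most 100 bp from one on their strand, were shared at 31.9% (30.5 to 33.4%) and 53.0% (51.0 to 55.0%), and sites inside genes at 14.1% (11.7 to 16.7%) and 3.06% (2.52 to 3.68%), so intergenic sites stood between these classes in both lists. Of the shared intergenic sites 224 (92.9%, 88.9 to 95.8%) had the same base in both lists. With one list moved by 1000 bp, the shares were 0% of replicate 1 and 0.0988% of replicate 2.

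**Figure D2:**
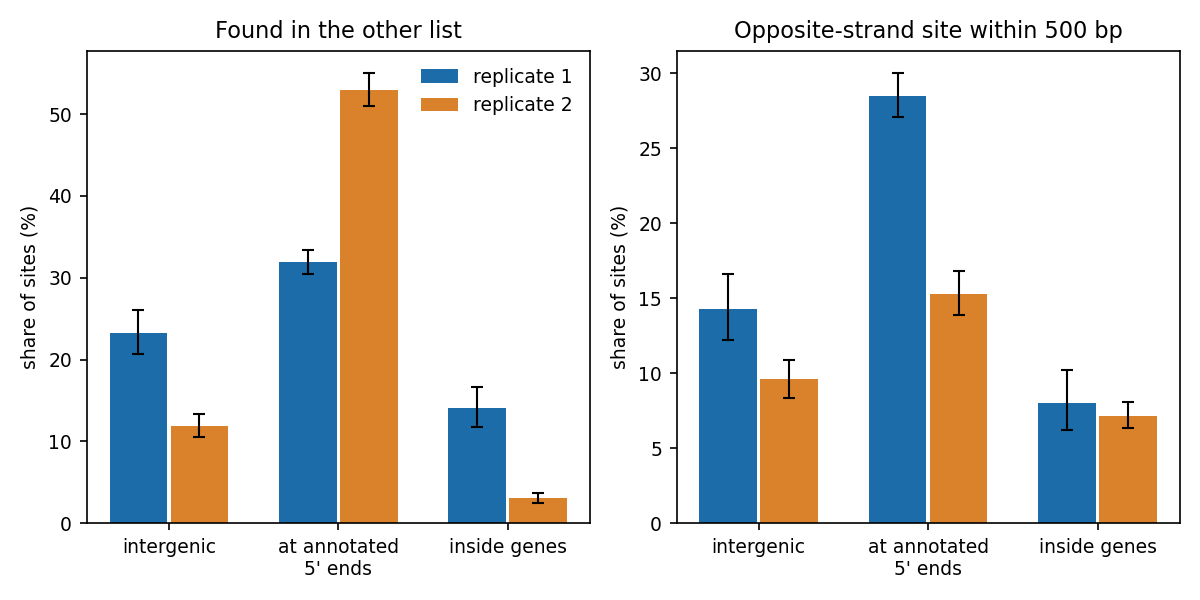
Share of sites (y axes, percent, with 95% exact intervals) found in the other list within 5 bp (left) and with an opposite-strand site within 500 bp (right), for intergenic sites, sites at annotated 5' ends and sites inside genes in each list. Intergenic sites stand between the other classes in both panels, with 23.3% and 11.9% found in the other list and 14.3% and 9.58% with a partner.

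The share found in both lists was highest at the start of each file and lowest at its end. The score is 1 for every site, and what the order of the files rests on is not stated. With each file divided into 5 equal parts, 122 of 207 intergenic sites (58.9%) of replicate 1 and 138 of 297 (46.5%) of replicate 2 were shared in the leading part, against 51.1% and 55.8% of the other sites there. In the trailing part the shares of intergenic sites were 3.66% and 2.20%, against 4.22% and 4.90% of the other sites. Intergenic sites themselves made up 15.5%, 9.04%, 9.23%, 15.6% and 29.8% of the successive parts of replicate 1, and 16.8%, 19.5%, 22.2%, 28.2% and 28.6% in replicate 2.

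The shared sites placed highest by the sum of both file orders lay beside genes of many functions, most of them transcribed. The leading one, on 2R at position 2108545 of the dm3 build, plus strand, was the 5th and the 17th site of its files. It lay between CR44161, a noncoding gene of 1.38 and 0.667 FPKM in Sample3 and Sample4, and tomboy40, which encodes a subunit of the mitochondrial import pore, 4594 bp ahead with 13.1 and 6.14 FPKM. An opposite-strand site followed it 166 bp downstream in both lists.

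The next site, on X at position 5794903, plus strand, lay 1112 bp upstream of the annotated 5' end of Act5C. This gene encodes a cytoplasmic actin, is known to use more than one promoter, and had 588 FPKM in Sample3 and 912 FPKM in Sample4. Others likewise pointed at a strongly transcribed gene. A site on X at 17042293, minus strand, lay 1054 bp from RpS5a, a protein of the small ribosomal subunit with 400.4 and 219.9 FPKM. A site on 2L at 16719937, plus strand, lay 2074 bp from Cyt-c-p, the cytochrome c of the respiratory chain, with 96.4 and 159 FPKM, and 302 bp past the end of Cyt-c-d, which had 0.083 FPKM in Sample3 and was listed at 0 in Sample4. A site on 3L at 8353998, minus strand, lay 2773 bp from Idh, an isocitrate dehydrogenase with 44.3 and 67.1 FPKM.

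Further leading sites lay farther from the gene ahead, or beside a small RNA gene. On 2R at 1614335, minus strand, a site lay 17538 bp upstream of ap, a LIM-homeodomain factor of wing development that had 206 FPKM in Sample3 and 329 FPKM in Sample4. On 2L at 490834, plus strand, a site was 32632 bp from ush, a cofactor of the hemocyte factor srp with 46.4 and 59.5 FPKM, and 11146 bp from cbt, a zinc finger factor that points the other way. On 2R at 7779630, plus strand, a site lay 998 bp from snoRNA:Me28S-A1322, which guides methylation of ribosomal RNA, and 1146 bp from ERp60, a disulphide isomerase of the secretory pathway. The remaining leading sites, on 3L at 9498424 and 2R at 15311599, both on the minus strand, had path, an amino acid transporter, 7958 bp ahead and CalpA, a calpain protease, 1019 bp behind.

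At the extremes, the shared site farthest from a gene lay 71611 bp from Pld, phospholipase D, on 2R at 2214382. The next were 38252 bp from CR45741 on 3L and 33293 bp from fru, a sex determination factor, on 3R. Those nearest to the limit lay 517 bp from the 5' end of mir-4955 on X, 522 bp from that of CG31955 on 2L and 523 bp from that of Aldh-III on 2R.

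Opposite-strand partners, sites of the same list on the other strand within 500 bp, accompanied a minority of intergenic sites. In replicate 1 there were 148 of 1036 with one (14.3%, 12.2 to 16.6%), against 25.4% of all sites on the arms. In replicate 2 there were 194 of 2025 (9.58%, 8.33 to 10.9%), against 10.8% of all sites. Sites at annotated 5' ends had a partner at 28.5% (27.1 to 30.0%) and 15.3% (13.9 to 16.8%), and sites inside genes at 8.01% (6.20 to 10.2%) and 7.16% (6.34 to 8.06%). The partner was itself intergenic for 134 of the 148 (90.5%) and 173 of the 194 (89.2%), which follows largely from the rule. A site more than 1000 bp from every gene can only have an intergenic partner within 500 bp. Only 33.5% of intergenic sites in replicate 1 and 32.7% in replicate 2 lay within 1000 bp of a gene. Among the leading 1000 sites of each file, with partners sought among these alone, the shares were 0% in replicate 1 and 3.11% in replicate 2, and among the leading 3000 they were 4.52% and 6.06%, so there the higher share was that of replicate 2.

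The arrangement of the pairs differed from that at annotated 5' ends and resembled that inside genes, so it was not particular to intergenic sites. Of the intergenic sites with a partner, 91 had it upstream, back to back, and 57 downstream, face to face, in replicate 1. In replicate 2 it was upstream for 75 and downstream for 119. At annotated 5' ends it was upstream for 1070 and downstream for 58 in replicate 1, and upstream for 326 and downstream for 38 in replicate 2. For sites inside genes it was upstream for 39 and downstream for 23 in replicate 1. In replicate 2 it was upstream for 97 of these and downstream for 156. Back-to-back partners were a median of 179 bp apart in replicate 1 and 206 bp in replicate 2, and the fullest 50 bp bin of replicate 1, between 100 and 150 bp upstream, held 26 sites. Face-to-face partners were a median of 308 bp apart in replicate 1 but 166 bp in replicate 2, where the 3 bins nearest the site held 20, 22 and 16 sites. At such spacings the 151 bp intervals of the pair overlap, and whether reads of both strands there share a source was not tested.

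**Figure D3:**
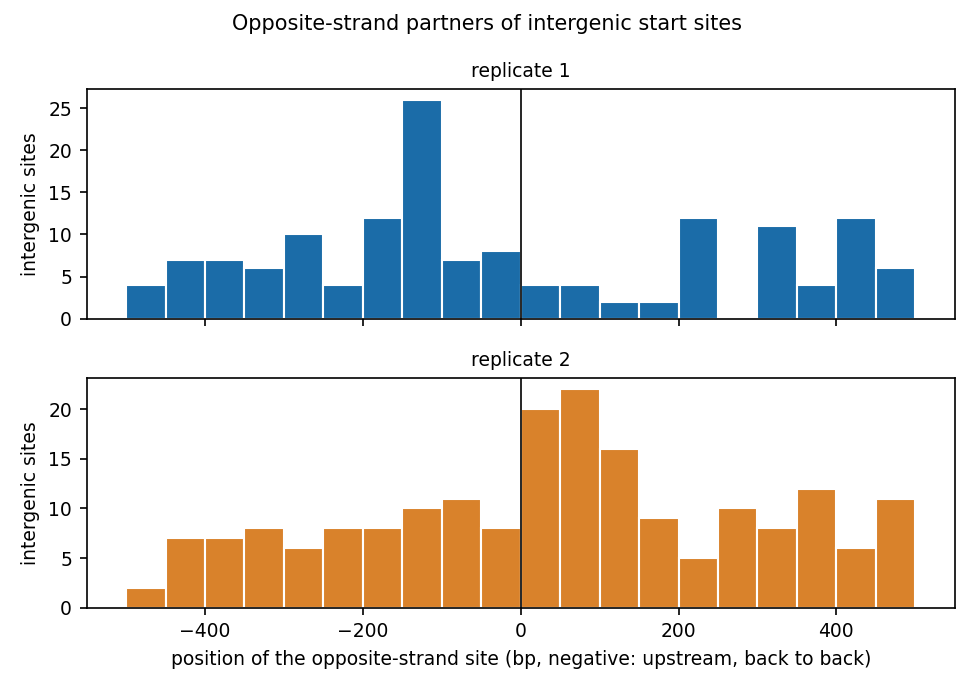
Number of intergenic sites (y axes) by the position of their nearest opposite-strand site (x axis, bp, 50 bp bins; negative is upstream) in replicate 1 (top) and replicate 2 (bottom). Replicate 1 has its fullest bin, 26 sites, between 100 and 150 bp upstream, and replicate 2 has 20, 22 and 16 sites in the 3 bins just downstream.

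Among the shared sites, 42 of 241 (17.4%, 12.9 to 22.8%) had a partner in replicate 1, and 22 (9.13%, 5.81 to 13.5%) had one in both lists. Apart from the leading site of 2R, those highest in file order lay at least 2749 bp from a gene. On 2L at 19423549, minus strand, a site between lectin-37Db and CG13085 had its partner 489 bp upstream in both lists. On 2R at 2154793, minus strand, a site 12022 bp from Pld had its partner 273 bp upstream in both. On 3R at 12058695, plus strand, a site between CR45643 and tara, a cell cycle regulator 9843 bp ahead with 18.6 and 20.0 FPKM, had its partner 118 bp upstream in both. On 3R at 19047710, minus strand, a site between fzo, a mitofusin of the testis, and CG4467 had its partner 134 bp upstream in replicate 1 but 68 bp downstream in replicate 2. The first 3 of these held the same arrangement in the lists, and the fzo site did not.

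A minority of intergenic sites had an intergenic neighbour of its list within 1000 bp on either strand. Clusters linked in this way held 210 of 1036 sites (20.3%, 17.9 to 22.8%) in replicate 1 and 434 of 2025 (21.4%, 19.7 to 23.3%) in replicate 2. The share was not computed for other sites, so whether intergenic sites cluster more or less than those is unknown. Peak calling also required 4-fold over a local region of 1000 bp, the same scale as the cluster gap. That filter removed 842 candidate sites in replicate 1 and 4127 in replicate 2. Most were pairs: 89 of 99 clusters in replicate 1 and 181 of 203 in replicate 2 had 2 sites, and the largest had 4 and 6.

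Over both lists together, with a site found in both counted in each, the largest cluster held 7 sites in 2995 bp of 2L between bun, a TSC22-family growth regulator, and t-cup. It had 1 site of replicate 1 and 6 of replicate 2, 5 of the 7 on the minus strand, with none shared. A cluster of 6 in 963 bp of 3L lay beside Tdrd3, a Tudor domain protein, with 4 sites of replicate 1 and 2 of replicate 2. Several clusters tied at 5 sites. In order of position the first were those between NTPase and lilli, an AF4-family elongation factor, with 2 shared sites, between CR43704 and bowl, a zinc finger factor, with 1, and between lectin-37Db and CG13085, with 2. Counting shared sites once, these held 3, 4 and 3 positions. The clusters of 5 and 6 named here held sites of both strands and both lists.

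Beyond the clusters, many intergenic sites shared an interval between the same pair of genes. Intervals with at least 3 sites of a list held 282 sites (27.2%) in replicate 1 and 975 (48.1%) in replicate 2. The interval between Pld and CR45127 on 2R, 254 kb long, held the most, with 7 sites of replicate 1 and 24 of replicate 2. It is the interval in which the later gene table names lncRNA:CR46075. The intervals between CG32230 and AGO3, an Argonaute protein of the piRNA pathway, on 3L (4 and 19 sites) and between CG42238 and Itgbetanu, an integrin subunit, on 2L (3 and 16) followed, the last level with that between CG5111 and CG4582 on 3R (3 and 16). Counted by nearest gene, Pld had 22 sites, Itgbetanu 15, and t-cup, CR44692 and CG5111 had 14 each over both lists, with a shared site counted in each. Such intervals are long, and site counts were not corrected for length.

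Within these intervals, neighbouring replicate 2 sites were mostly on one strand, and those of replicate 1 were on the same strand in about as many pairs as not. Of neighbouring replicate 2 sites more than 500 bp apart in the same interval, 653 of 869 pairs (75.1%, 72.1 to 78.0%) were on the same strand. In replicate 1 it was 122 of 260 (46.9%, 40.7 to 53.2%), and the intervals do not overlap. The replicate 2 share was flat over distance, at 74.8% from 500 to 1000 bp, 75.8% to 2000 bp, 75.3% to 5000 bp and 74.8% beyond. In replicate 1 it stood at 35.7%, 41.1%, 44.3% and 56.4% over the same spacings, with intervals that overlap each other. Pairs up to 300 bp apart were nearly all on opposite strands, as the authors' peak calling kept sites of a strand at least 300 bp apart. From 300 to 500 bp, 0 of 26 pairs in replicate 1 and 7 of 34 in replicate 2 were on the same strand. The libraries also differ in depth, and its part in the runs was not tested. Strand agreement was not computed for all sites of a list or for sites inside genes, of which replicate 1 had 774 and replicate 2 had 3559. Whether it is particular to intergenic sites is therefore unknown.

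**Figure D4:**
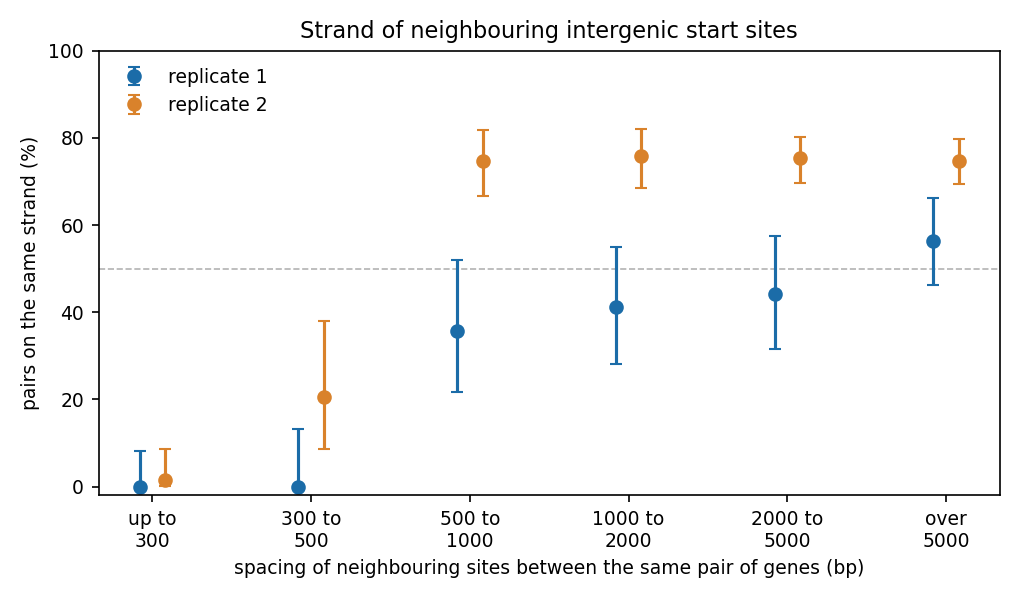
Share of neighbouring intergenic sites on the same strand (y axis, percent, with 95% exact intervals) by their spacing within an interval between genes (x axis, bp). From 500 bp on, replicate 2 stays between 74.8% and 75.8%, and replicate 1 stands between 35.7% and 56.4%, near the dashed line at 50%.

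Of the intervals with at least 3 sites of a list, 12 of 78 (15.4%) in replicate 1 and 80 of 189 (42.3%) in replicate 2 had all of them on one strand. In replicate 2 the run lay on the strand of the gene ahead alone in 34 of the 80, of the gene behind alone in 17, of both in 20 and of neither in 9. A run between genes that point apart always has the strand of the gene ahead alone, whichever strand it is on. Between genes that point at each other it always has that of the gene behind alone. The 34 and 17 therefore count arrangements of genes. Only between genes on the same strand can the run lie on their strand or opposite to it, and there 20 did the former and 9 the latter.

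The longest run held 16 replicate 2 sites on the plus strand over 64.0 kb of 3R between CG5111 and CG4582. It lay downstream of CG5111, which had only 0.531 and 0.403 FPKM, and CG4582 was listed at 0 in both libraries. The later gene table names a long noncoding RNA, lncRNA:CR46100, between these genes. The next held 11 replicate 2 sites on the minus strand over 46.8 kb of 2L upstream of RapGAP1, a GTPase-activating protein of Rap1 with 6.95 and 6.97 FPKM. Replicate 1 sites lay on both strands in this interval, 2 plus and 4 minus, and in that beside CG5111, 2 plus and 1 minus. A replicate 2 run of 9 minus sites over 43.3 kb of 3R lay between CG11997 and CR45196. It had no gene of its strand at either side, and its flanking genes were at 0.188 FPKM or less. Across CG11997, in the adjoining interval, a replicate 2 run of 4 minus sites over 6.29 kb led to pum, with 13.3 and 15.3 FPKM. Whether these runs belong together was not tested.

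Further runs led into a gene of their strand. A run of 9 plus sites over 29.5 kb led to jvl, a microtubule-associated protein with 13.0 and 16.5 FPKM. Runs of 8 minus sites led to shep, an RNA-binding protein, over 45.9 kb, to rdx, an adaptor for protein degradation in hedgehog signalling, over 35.3 kb, and to the noncoding gene CR44176 over 52.3 kb. Mef2, a muscle transcription factor, had 7, and Eip75B, a nuclear receptor of the ecdysone response, fru and Sdc, the syndecan, had 6 each. These 4 genes stood between 5.05 and 28.1 FPKM in both libraries. Runs of 8 sites also lay downstream of Glut4EF, a transcription factor gene, and of RpL10, a ribosomal protein gene with 227 and 85.4 FPKM.

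The intervals beside pyd and shot, chosen after their values were seen, held sites of both strands with an excess on one. Next to pyd, a junction scaffold of the ZO-1 family with 23.5 and 25.7 FPKM, 15 of 17 replicate 2 sites were on the minus strand, that of the gene. Next to shot, a spectraplakin that links actin and microtubules, it was 11 of 12, at 22.8 and 21.6 FPKM. Replicate 1 had 1 and 2 sites in these intervals.

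**Figure D5:**
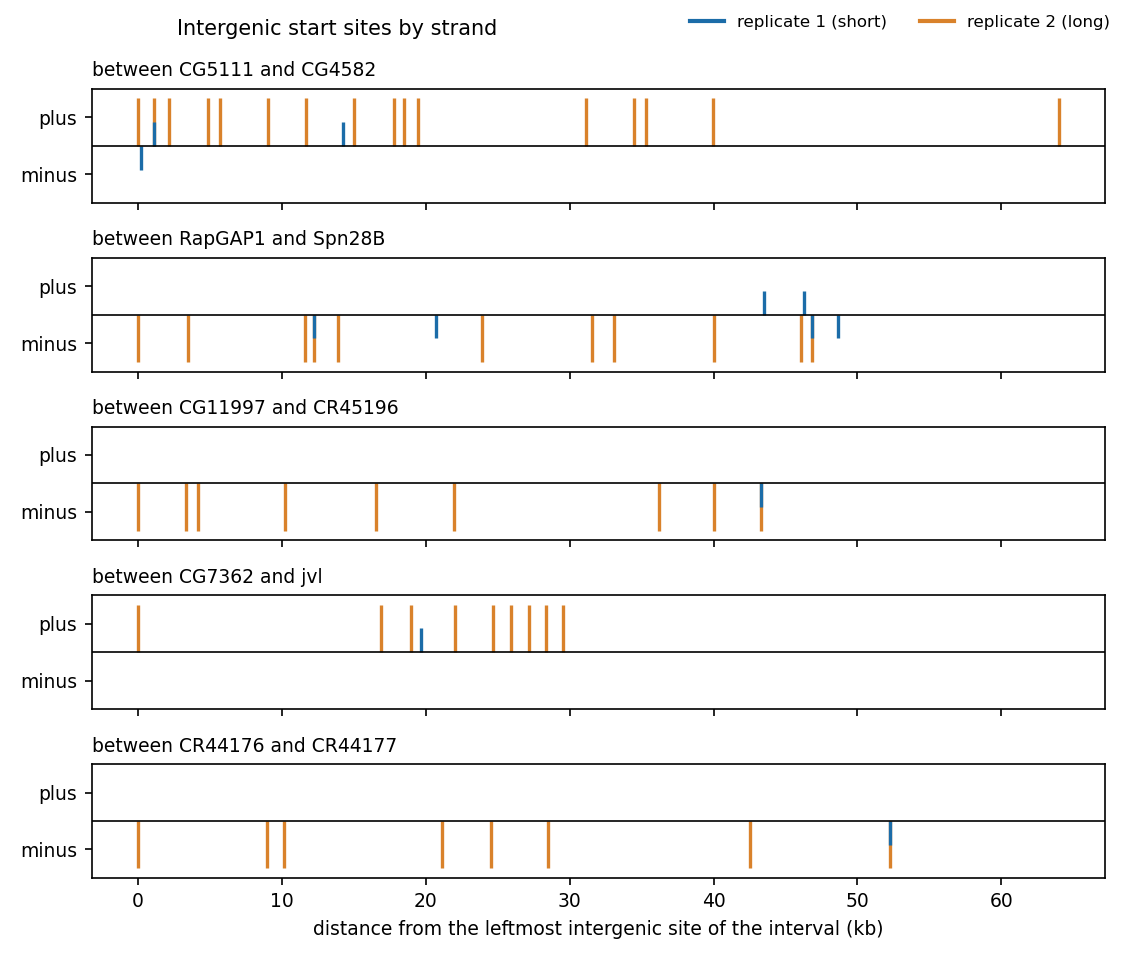
Intergenic sites of replicate 1 (short bars) and replicate 2 (long bars), drawn up for the plus and down for the minus strand, against the distance from the leftmost site (x axis, kb) in the intervals that hold the 5 longest one-strand runs of replicate 2. The runs hold 16, 11, 9, 9 and 8 replicate 2 sites. Replicate 1 has 3 sites in the top interval, 2 plus and 1 minus, and 6 in the next, 2 plus and 4 minus. Of these, 1 and 2 are shared with replicate 2.

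Genes next to intergenic sites were mostly transcribed. Of the 770 genes nearest to a replicate 1 site, 516 (67.0%) had at least 1 FPKM in both libraries, and of the 1211 nearest to a replicate 2 site 915 (75.6%), against 50.8% of all 16306 genes of the arms. Their median was 9.02 FPKM (Sample3) and 7.72 FPKM (Sample4) for replicate 1 and 11.4 and 10.5 FPKM for replicate 2, against 2.04 and 1.39 FPKM over all genes. For the 217 genes nearest to shared sites the medians were 12.7 and 10.5 FPKM. On the log2(FPKM + 1) scale the median of the nearest genes exceeded that of all genes by 1.84 in replicate 1 and 2.15 in replicate 2, but by only 0.387 and 0.315 where both sides were limited to genes of at least 1 FPKM. Genes are not replicates, so these medians have no test.

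The highest medians were found where a shared site led into a gene. The 93 genes with a 5' end on the same strand within 5000 bp ahead of a shared site had median levels of 23.4 FPKM (Sample3) and 30.3 FPKM (Sample4), and 85 of them (91.4%) had at least 1 FPKM in both. Of these 93, 81 (87.1%) have more than 1 transcript in a RefSeq table of the later Release 6 assembly, against 44.9% of all genes and 51.0% of protein-coding genes. Limited to genes that reach 1 FPKM in each library, it was 91.8% of 85 genes ahead of a shared site, against 56.2% of the 8273 that matched the table. Of same-strand genes ahead within 5000 bp, 237 of 316 for replicate 1 and 332 of 441 (75.3%) for replicate 2 had more than 1 transcript, and of those behind sites of replicate 2 alone 414 of 546 (75.8%). Genes behind a shared site on its strand had 7.42 and 4.97 FPKM (n = 73).

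For sites of replicate 2 alone, genes that ended within 5000 bp behind them on the same strand were also mostly transcribed. Their 548 genes had medians of 14.7 and 13.4 FPKM, and 89.6% had at least 1 FPKM in both. For replicate 1 alone the same class had 8.18 and 6.48 FPKM (n = 159), and 63.5% had at least 1 FPKM.

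The share of genes with a called site at their own annotated 5' end was lower among genes ahead of an intergenic site than among all genes, with no test across samples. Among same-strand genes ahead within 5000 bp with at least 1 FPKM in both libraries, 73 of 255 (28.6%, 23.2 to 34.6%) had a replicate 1 site at most 100 bp from it, against 3712 of all 8287 such genes (44.8%, 43.7 to 45.9%). In replicate 2 it was 69 of 369 (18.7%, 14.9 to 23.1%), against 27.5% (26.6 to 28.5%). The gene table holds 1 transcript per gene, so a site outside the span can lie at the start of another transcript of the gene. Coordinates of those transcripts in dm3 were not used here.

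Some intervals that are empty in the authors' table enclose a gene in the later one. Gene order could be compared for 1256 of the 1325 intervals with an intergenic site. Of them 96 (7.64%, 6.23 to 9.25%) enclose a gene absent from the authors' table, against 5.33% of all 5401 intervals over 1000 bp. In 142 (11.3%, 9.61 to 13.2%) the flanking genes overlap in the later table, against 5.22% (4.64 to 5.85%), so that no interval is left. The authors' spans are of 1 transcript per gene, and whether these overlaps come from new annotation was not tested. Here and below, intervals with a site were taken at any length, while those they are set against were over 1000 bp. Intervals with a site were longer, with a median of 5.64 kb against 4.01 kb, and this was not corrected for. Of the sites, 783 (75.6%) of replicate 1 and 1434 (70.8%) of replicate 2 lay in intervals with no further gene between the same neighbours in the later table. Site positions were not placed in the later assembly. Whether these sites lie outside the later spans of the flanking genes was therefore not tested.

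Genes of transfer RNAs, the carriers of amino acids to the ribosome, are transcribed by RNA polymerase III and were the most frequent of the genes so enclosed. They lay in 45 intervals (3.58%, 2.63 to 4.76%), against 1.37% (1.08 to 1.72%) of all. These held 41 sites of replicate 1 and 71 of replicate 2, of which 22 were shared, 53.7% (37.4 to 69.3%) and 31.0% (20.5 to 43.1%). Of all intergenic sites, 23.3% in replicate 1 and 11.9% in replicate 2 were shared. Examples chosen after their values were seen are the interval between bip1 and CG42590 on 3L, with 6 tRNA genes for leucine and 2 shared sites, and that between CR43904 and Cyp6w1 on 2R, with 11 tRNA genes and 2 shared sites. The leading site beside CalpA lay in an interval with 3 tRNA genes, for serine and valine.

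Long noncoding RNA genes lay in 30 intervals (2.39%, 1.62 to 3.39%), against 2.09% (1.73 to 2.51%) of all. Their 40 and 104 sites were shared at 20.0% (9.05 to 35.6%) and 7.69% (3.38 to 14.6%), near the shares of all intergenic sites. Only gene order was compared between the assemblies, so whether a site lies at the enclosed gene was not tested.

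Genes of hemocytes, immunity and signalling were checked for intergenic sites within 10000 bp. Among all genes of the arms 15.0% had a replicate 1 site and 23.1% a replicate 2 site so close, and among genes of at least 1 FPKM 19.9% and 31.6%. Of 16 immune genes, 9 had a replicate 1 site and 7 a replicate 2 site. Of 24 signalling targets and early response genes present in the table it was 6 and 12, of 14 hemocyte lineage factors 3 and 6, of 12 basement membrane and hemocyte products present there 4 and 1, and of 19 Hox and segmentation genes 2 and 3. A site could count for more than 1 neighbouring gene, in the lists and among all genes alike. The lists are small, and their shares have no test.

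The signalling gene with most sites was sty, sprouty, an antagonist of receptor tyrosine kinases with 122 and 182 FPKM, near 6 sites of replicate 1 and 4 of replicate 2, of which 1 was shared. EcR, the ecdysone receptor, followed with 4 and 3 sites at 10.0 and 10.3 FPKM. Of the immune genes, PGRP-LC, a receptor for bacterial peptidoglycan with 33.6 and 11.6 FPKM, had 2 and 3 sites, and dl, the NF-kappaB factor dorsal with 29.4 and 32.0 FPKM, had 4 and 1. The hemocyte factors with most were srp, a GATA factor, with 2 and 1 sites, and Pvr, a receptor tyrosine kinase for growth factors, with 1 and 2. Hemocyte products found by symbol had at most 1 site each, among them the laminin genes LanA, LanB1 and LanB2 in replicate 1 and Hml in replicate 2.

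Among Hox and segmentation genes, most of which were under 1 FPKM, h, the repressor hairy with 106 and 132 FPKM, had 2 and 3 sites. It was followed by lab, Scr and Abd-B with 1 site in 1 list each. Collagen genes Cg25C and vkg, among the highest of the markers, had no intergenic site within 10000 bp in either list.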

How the data were processed

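Per the file headers, the authors ran HOMER in TSS mode on each 5'GRO-seq library against the GRO-seq library of the same number. HOMER 4.7, Bowtie2 2.1.0, CASAVA 1.8.2 and dm3 are named, without roles, in the submitters' processing notes, and how reads were aligned is not given in the sources used. The deposited lists hold 151 bp intervals with a score that is 1 for every site, so sites were not weighted. For GRO-seq the authors deposited FPKM for 16612 rows, 1 RefSeq transcript per gene.

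From interval centres, distances, overlaps within 5 bp, opposite-strand partners within 500 bp, clusters with gaps up to 1000 bp and flanking genes were computed with Python 3.11.15, numpy 2.4.6, pandas 2.3.3 and scipy 1.17.1, and tested on simulated data. Shares have 95% exact Clopper-Pearson intervals. Sites of a library are not replicates, so no test across samples was made. Levels of nearest genes were also compared as log2(FPKM + 1). The Release 6 RefSeq table served for names and gene order alone: 16336 rows matched by accession, 58 by symbol, 137 by synonym and 81 not at all.

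Named sites were the 10 shared ones with the smallest sum of file orders, the 5 clusters with most sites (ties by chromosome and position), 5 shared sites with partners in both lists, the 3 farthest from a gene and the 3 nearest the limit. Named genes were the 5 nearest to most sites and the 2 of each list with most sites within 10000 bp; genes of one-strand runs were chosen after their values were seen. Members, lists and rules were chosen with earlier results of these data known. Sequences were not analysed here. Alternatives varied distances, windows, gene sets, file order, pseudocount and strand rules.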

Additional observations from a re-analysis of the deposited data

How the results depend on the processing

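Of 135 alternative values, most of them counts, shares or distances that have no sign, 61 stayed near the reported one and 74 moved. The moves with another window, gap or tolerance follow from their construction, and the cause of the others, the limit at 5' ends included, was not tested. Moving the limit at 5' ends to 0 bp gave 2015 intergenic sites in replicate 1, partners at 25.3% and 11.1% in replicates 1 and 2, 17.4% shared and 19.1% clustered in replicate 2, and median distances of 403 and 1129 bp. At 250 bp, partners stood at 18.7% in replicate 1, sharing at 13.5% in replicate 2 and the medians at 1253 and 1924 bp. At 1000 bp the medians were 2808 and 3070 bp. At 2000 bp they were 4131 and 4468 bp, with 619 sites in replicate 1 and 9.20% shared in replicate 2. Spans of at most 100000 bp gave a median of 2794 bp in replicate 2, and protein-coding genes alone 2212 and 2757 bp. Distance to the nearest 5' end had medians of 2704 and 3983 bp, and to same-strand genes 4013 and 4117 bp. With partners and clusters sought among them alone, the leading 1000 sites of each file held 163 and 161 intergenic sites, 47.9% and 48.4% shared, 0% and 3.11% with a partner, 0% and 7.45% clustered, with medians of 1494 bp in both. The leading 3000 held 354 and 495, with 46.6% and 33.3% shared, 4.52% and 6.06% with a partner, 7.91% and 10.1% clustered and medians of 1403 and 1529 bp, so in both the share with a partner was higher in replicate 2, opposite to that over whole files. Tolerances of 50 and 150 bp gave 27.6% and 30.1% shared in replicate 1 and 14.2% and 15.4% in replicate 2, and a shift of 1000 bp gave 0% and 0.0988%. Partner windows of 150, 250 and 1000 bp gave 4.92%, 7.82% and 26.3% in replicate 1 and 4.30%, 5.78% and 15.0% in replicate 2. Divergent partners alone gave 8.98% and 3.85%, and partners of either list 20.1% and 12.7%. Cluster gaps of 500 and 2000 bp gave 13.0% and 29.9% in replicate 1 and 9.33% and 35.2% in replicate 2, and same-strand clusters 4.25% and 10.9%. The level of nearest genes exceeded that of all genes by 1.84 and 2.15 on the log2(FPKM + 1) scale (medians), from 1.72 to 1.87 and from 2.03 to 2.27 with a library left out, by 2.27 and 2.60 with a pseudocount of 0.1, by 2.07 and 2.31 for genes within 2000 bp, and by 0.387 and 0.315 among genes of at least 1 FPKM. Alternatives for the strand of neighbouring sites, chosen after seeing the data, gave 46.6% to 50.8% in replicate 1, the last without shared sites, and 73.8% to 77.0% in replicate 2. No paired analysis was possible because the GRO-seq columns carry no replicate number and no comparison between groups was tested. The number of reads at each site is not in the lists used here, so depth per site is unknown.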
